A study of Mus musculus with 6 samples.

Results

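Glycolysis splits glucose into pyruvate in the cytosol, and the embryonic heart, which beats before its mitochondria are mature, is known for relying on it strongly. The genes described here cover glucose entry, each enzyme step, lactate production and export, and the pyruvate dehydrogenase step that leads pyruvate into the citric acid cycle. Several steps have a ubiquitous isoform and one enriched in striated muscle, so the muscle isoforms are set beside their ubiquitous partners in hearts with mutated Casz1. The 35 genes were listed by symbol and found through RefSeq identifiers in a table of 23290 entries from E10.5 mouse hearts. All 35 had exactly 1 entry, all 35 were tested by the authors and 0 stood at 0 FPKM.

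Mutant embryos were Nkx2-5Cre/+,Casz1f/f: both Casz1 alleles, encoding a zinc finger transcription factor, were floxed, and Cre recombinase sat at 1 Nkx2-5 allele. Control embryos were Nkx2-5+/+,Casz1f/+, with 1 floxed Casz1 allele and no Cre, and are labelled wild type although they carry a floxed allele too. Each group had 3 hearts on a C57BL/6 background, collected one by one and described as biological replicates, and Cre driven from Nkx2-5 acts in cells that express it and in their descendants. The table holds 1 pooled value per genotype and none per heart, so the spread between hearts cannot be shown and the depth of each library is unknown. Levels are in FPKM, fragments scaled by transcript length and by library size, and how library size was normalised is not given. Scaling by length allows different genes to be compared.

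Every FPKM, fold change, p and q given here is from the authors' deposited table, and fold changes are mutant over control on the log2 scale. Dividing a fold change by its deposited test statistic gave its standard error (SE), and a call means q under 0.05. Casz1 read 4.68 FPKM in mutant and 6.61 FPKM in control hearts (log2 -0.50, q = 1.00 in the authors' deposited table, SE 0.306). Nkx2-5 read 82.9 FPKM in mutant and 143.0 FPKM in control hearts (log2 -0.79, q = 0.536 in the authors' deposited table, SE 0.295). The Cre allele was present in the mutant group alone, so its effect and that of Casz1 cannot be told apart. The 9 cardiomyocyte markers were all detected and summed to 16631 FPKM in mutant and 14464 FPKM in control hearts, with 2 higher, 7 lower and 0 called. Without Myl7, an atrial myosin light chain at 7496 FPKM in mutant and 5080 FPKM in control hearts, the other 8 summed to 9136 FPKM in mutant and 9383 FPKM in control hearts. Markers of some other cells differed more, where 0.422% of all tested entries were called. Of 7 foregut and epithelial markers 5 were called higher (18.2 FPKM summed in mutant and 3.89 FPKM in control hearts). Of 5 tested smooth muscle markers 2, Actg2 and Lmod1, were called higher. The 5 summed to 885 FPKM in mutant and 471 FPKM in control hearts. That sum was carried by Tagln, not called, at 767 FPKM in mutant and 333 FPKM in control hearts, and Cnn1 was lower. Acta2 had too many fragments for a test and is not in the sum. Of 7 macrophage and platelet markers 1, Lyz2, was called lower (1.91 FPKM in mutant and 16.9 FPKM in control hearts). The 7 summed to 44.3 FPKM in mutant and 100.2 FPKM in control hearts. That sum was carried mostly by Pf4, not called, at 28.8 FPKM in mutant and 60.5 FPKM in control hearts. Of 6 endothelial markers 0 were called (198 and 229 FPKM summed). The part of all these cells in the values below was not tested. Whether less of a transcript reflects fewer cells of a type or less RNA per cell cannot be told apart in whole hearts.

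Promoter windows are printed from RefSeq on GRCm38.p6, 250 bases before to 50 after the annotated start, read 5′ to 3′ on the gene's strand. They are shown for the genes the isoform comparison turns on, and capitals mark motif matches found on either strand. Pgam2 (chr11:5803747-5804046, minus strand) is the muscle phosphoglycerate mutase and Pgam1 (chr19:41911621-41911920, plus strand) its ubiquitous partner. Eno3 (chr11:70656926-70657225, plus strand) is the muscle enolase. Pdk3 (chrX:93832101-93832400, minus strand) is shown for the lowest p among the 35 genes, and Slc2a1 (chr4:119108495-119108794, plus strand) as the main glucose transporter.
Pgam2: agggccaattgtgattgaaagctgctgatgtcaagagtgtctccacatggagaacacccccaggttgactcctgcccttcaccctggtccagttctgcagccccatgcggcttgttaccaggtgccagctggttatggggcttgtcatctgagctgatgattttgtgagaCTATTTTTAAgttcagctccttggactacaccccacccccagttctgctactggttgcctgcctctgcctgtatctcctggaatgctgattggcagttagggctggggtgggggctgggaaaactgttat
Pgam1: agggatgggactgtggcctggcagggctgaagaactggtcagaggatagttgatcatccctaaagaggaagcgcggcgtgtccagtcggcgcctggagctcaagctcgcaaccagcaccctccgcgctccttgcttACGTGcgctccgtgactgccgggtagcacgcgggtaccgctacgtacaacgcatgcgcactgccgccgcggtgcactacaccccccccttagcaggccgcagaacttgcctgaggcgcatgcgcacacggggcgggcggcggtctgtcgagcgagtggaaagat
Eno3: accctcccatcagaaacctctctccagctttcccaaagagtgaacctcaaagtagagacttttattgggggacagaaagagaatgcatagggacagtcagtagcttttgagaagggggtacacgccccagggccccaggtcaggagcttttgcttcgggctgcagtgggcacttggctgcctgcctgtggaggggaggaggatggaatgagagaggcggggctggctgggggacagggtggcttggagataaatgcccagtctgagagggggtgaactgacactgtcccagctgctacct
Pdk3: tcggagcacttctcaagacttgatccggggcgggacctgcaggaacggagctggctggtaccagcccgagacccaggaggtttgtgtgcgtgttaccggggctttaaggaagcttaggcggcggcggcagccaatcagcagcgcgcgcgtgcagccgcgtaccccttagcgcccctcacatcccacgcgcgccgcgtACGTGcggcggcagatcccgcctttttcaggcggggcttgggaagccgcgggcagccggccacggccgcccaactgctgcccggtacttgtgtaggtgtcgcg
Slc2a1: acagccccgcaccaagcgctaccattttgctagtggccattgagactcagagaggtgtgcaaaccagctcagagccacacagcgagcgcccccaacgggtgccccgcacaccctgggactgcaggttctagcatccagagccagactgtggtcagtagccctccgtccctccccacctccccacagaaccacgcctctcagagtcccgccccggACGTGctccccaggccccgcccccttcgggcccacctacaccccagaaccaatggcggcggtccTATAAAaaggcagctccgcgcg

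The window of Pgam2 held a match to the MEF2 site at -80 from the start and the window of Pgam1 held ACGTG at -114. ACGTG is the core of the element bound by hypoxia-inducible factors, which are known inducers of glycolytic genes. Pdk3 carried it at -53 and Slc2a1 at -36, and Slc2a1 also had TATAAA at 28 bases past the annotated start. Eno3 had no match to any motif searched. Windows were found for 33 of the 35 genes, 52 windows in all, since several genes have more than 1 annotated start. ACGTG was present in 22 of these 52 windows (42.3%), against 19.6% of all 32851 windows in the reference. The E-box CACGTG, which contains ACGTG, was in 11.5% of the windows of these genes and 7.15% of all windows. TNAAGTG, the Nkx2-5 element, was in 7.69% of the windows of these genes and 11.5% of all windows, and TATAAA in 5.77% and 13.6%. The MEF2 site was in 3.85% of theirs and 3.19% of all, and the CArG box of serum response factor in 1.92% and 1.63%. The 18 genes with ACGTG had a median log2 fold change of 0.01 and the 15 without it of 0.00, with 9 and 6 of them above 0. These letters are a description of the windows and not a record of binding.

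Levels differed widely among the 35 genes, of which 17 had a mean of at least 100 FPKM and 8 one under 10 FPKM. None was called different between genotypes. By the Cuffdiff q of the authors' deposited table, 0 of the 35 genes passed 0.05, where 0.422% of all 15387 tested entries passed. At an unadjusted p under 0.05 there was 1 gene, Pdk3, against 3.17% of all tested entries and 2.16% of those with at least 1 FPKM in a genotype. Pdk3 was lower in mutant hearts, as were 1.18% of tested entries at that p. The 35 levels summed to 8884 FPKM in mutant and 8642 FPKM in control hearts, or 1.65% and 1.64% of all FPKM listed. Levels ran from Gapdh, 26th of all tested entries by mean FPKM, to Eno2, the neuronal enolase, at 1.70 FPKM in mutant and 2.18 FPKM in control hearts.

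**Figure D1:**
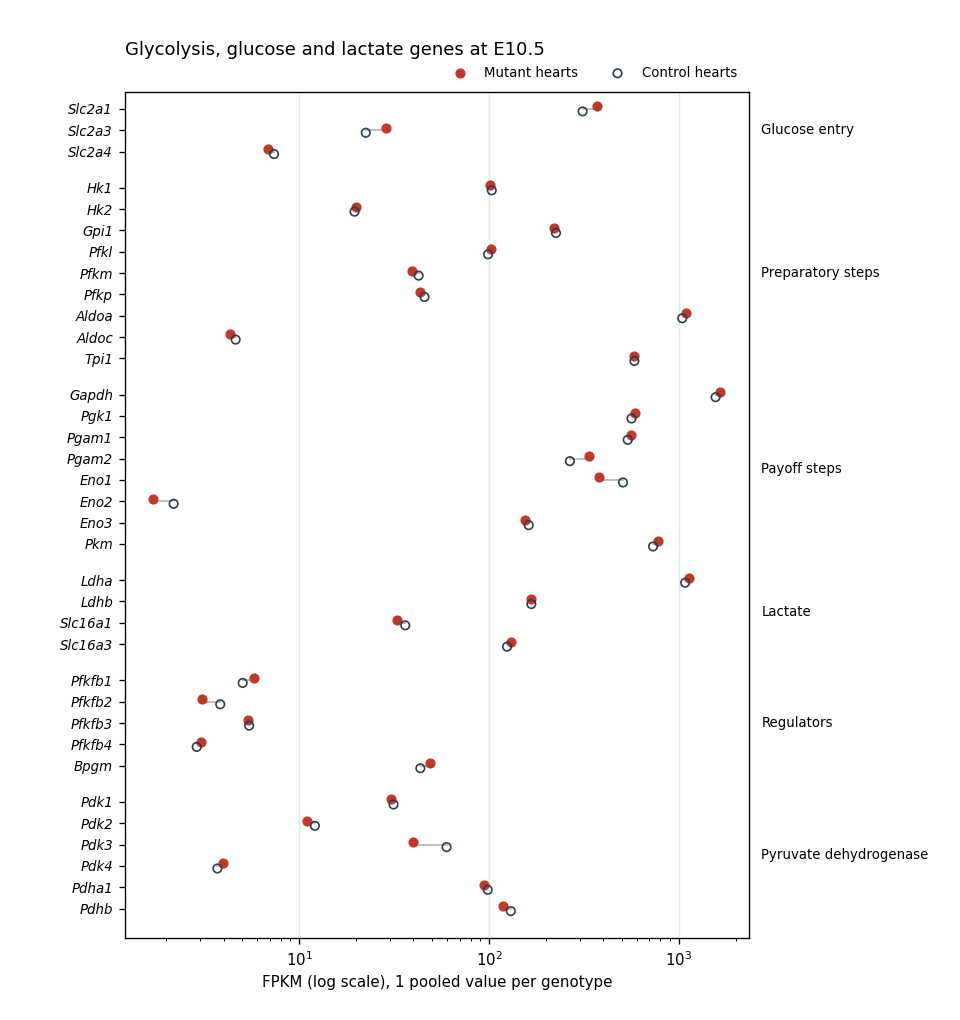
Level of each of the 35 genes in mutant hearts (filled) and control hearts (open), in FPKM on a log axis, 1 pooled value per genotype, grouped by role. The paired points lie close together for most genes. The widest gaps are at Slc2a3, Pgam2, Eno1, Eno2, Pfkfb2 and Pdk3 (28.7 and 22.4 FPKM for Slc2a3 in mutant and control hearts).

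Of the 35 genes, 16 were higher and 19 lower in mutant hearts, with a median log2 fold change of 0.00. The median was -0.02 among the 12150 tested entries that reached 1 FPKM in a genotype, of which 44.4% were higher. The median size of the fold change, regardless of sign, was 0.08 for these genes and 0.09 for those entries. A fold of at least 1.25, a limit chosen after the values were seen, was reached by 2 genes upward (Pgam2 and Slc2a3) and 4 downward (Pdk3, Eno1, Eno2 and Pfkfb2). These were 5.71% of the genes upward and 11.4% downward, beside 5.22% and 6.19% of those entries. In either direction they were 17.1% of the genes, beside 11.4% of entries. At 1.5-fold there were 0 genes upward and 1 downward, Pdk3, beside 2.5% and 2.11%.

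Abundant transcripts leaned upward as a class. Among 810 entries with a mean of at least 100 FPKM, 66.2% were higher in mutant hearts with a median log2 fold change of 0.05. Of the 17 glycolytic genes at that level, 10 were higher, with a median of 0.05 as well. The intervals show how large a difference each value leaves room for. Implied SEs ran from 0.281 for Pdk3 to 0.491 for Pkm, and 34 of 35 intervals included 0. The lowest bound was -1.18, for Eno2, and the highest was 1.04, for Pkm.

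**Figure D2:**
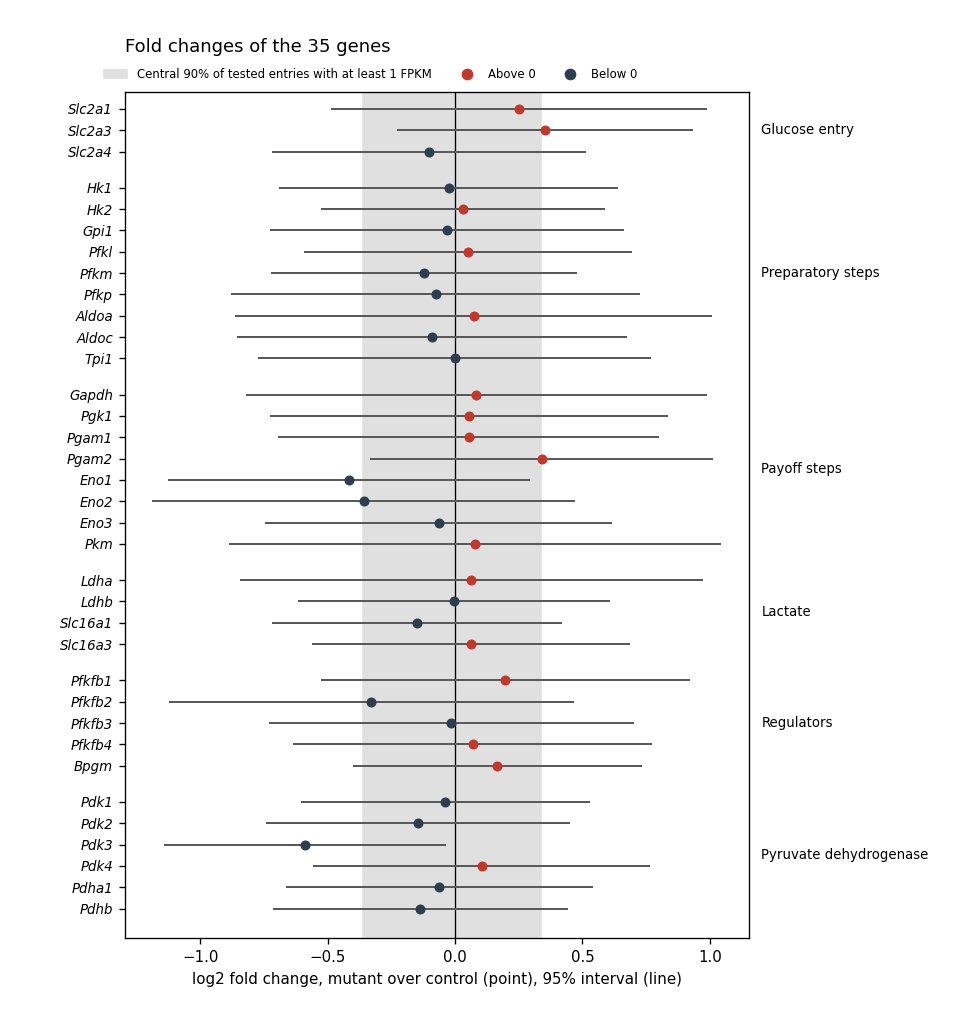
log2 fold change of each gene, mutant over control, with its 95% interval from the implied SE. The grey band spans the central 90% of tested entries with at least 1 FPKM, from -0.36 to 0.34. Pdk3 is the single gene whose interval lies wholly on one side of 0, and Pdk3, Eno1, Slc2a3 and, by a narrow margin, Pgam2 lie outside the band.

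Glucose entry was the role with the highest median fold change (0.25 over 3 genes), and none of its genes was called. Slc2a1 encodes GLUT1, the basal glucose carrier of embryonic tissues. It read 371 FPKM in mutant and 311 FPKM in control hearts, which is 1.19-fold higher (log2 0.25, 95% interval -0.48 to 0.99, q = 1.00 in the authors' deposited table). Slc2a3, the high-affinity carrier known from neurons and placenta, read 28.7 FPKM in mutant and 22.4 FPKM in control hearts (log2 0.35, SE 0.294, 95% interval -0.22 to 0.93, q = 1.00). Slc2a4, the insulin-responsive carrier of adult muscle and fat, was low, at 6.87 FPKM in mutant and 7.38 FPKM in control hearts. GLUT1 transcripts made up 91.2% of the summed transporter FPKM in mutant hearts and 91.3% in control hearts. The neuronal markers, 6 of 7 of them tested and 0 called, summed to 29.5 FPKM in mutant and 20.8 FPKM in control hearts. That sum was carried by Tubb3, at 17.3 FPKM in mutant and 13.7 FPKM in control hearts, and Isl1, at 8.21 and 4.00 FPKM. Of the 6 tested markers 5 were higher and 1, Elavl3, was lower. The part of neurons in the Slc2a3 value was not tested.

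The first steps, from hexokinase to triose phosphate isomerase, showed the smallest differences. All 9 genes stayed within 1.25-fold, with log2 fold changes from -0.12 to 0.07. Hk1, the hexokinase that traps glucose as its phosphate, read 102 FPKM in mutant and 103 FPKM in control hearts. Hk2, the muscle and insulin-responsive hexokinase, read 20.0 FPKM in mutant and 19.6 FPKM in control hearts, so Hk1 held 83.5% of the pair in mutant and 84.1% in control hearts. Gpi1, which converts glucose phosphate to fructose phosphate, read 220.4 FPKM in mutant and 225.3 FPKM in control hearts.

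Phosphofructokinase commits sugar to glycolysis and is built from liver, muscle and platelet subunits. Pfkl, the liver subunit, was the most abundant, at 102 FPKM in mutant and 98.9 FPKM in control hearts (log2 0.05, SE 0.327). Pfkm, the muscle subunit, read 39.2 FPKM in mutant and 42.6 FPKM in control hearts. Pfkp, the platelet subunit, read 43.4 FPKM in mutant and 45.8 FPKM in control hearts (log2 -0.08, SE 0.407). The muscle subunit was the least abundant of the 3, with 21.2% of the summed FPKM in mutant and 22.7% in control hearts. Pfkm and Pfkp have overlapping entries at their loci (Senp1 and Pitrm1), and reads there may be split between entries.

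Aldolase and triose phosphate isomerase complete the preparatory steps. Aldoa, the muscle and general aldolase, read 1096 FPKM in mutant and 1042 FPKM in control hearts. Aldoc, the brain form, read 4.35 FPKM in mutant and 4.63 FPKM in control hearts. Tpi1 read 583 FPKM in each genotype, with a log2 fold change of 0.00 and an interval from -0.77 to 0.76 in the authors' deposited table.

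The steps that yield ATP and pyruvate held the most abundant gene of the set, Gapdh, while Ldha and Aldoa, from other steps, came next. Gapdh, which oxidises glyceraldehyde phosphate, read 1655 FPKM in mutant and 1561 FPKM in control hearts. Pgk1, the first ATP-yielding kinase, read 585 FPKM in mutant and 563 FPKM in control hearts. Pkm, which encodes muscle and embryonic pyruvate kinase by alternative splicing, read 773 FPKM in mutant and 731 FPKM in control hearts, without separating the splice forms. Each differed by less than its SE, and Gapdh, often used as a loading reference, had an interval from -0.82 to 0.99. Of the 50-base stretches of their transcripts, 82.5% for Gapdh, 68.0% for Pgk1 and 34.4% for Pkm also occur in a transcript of another gene, as do 41.5% for Pgam1, and how such reads were counted is not stated.

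Pgam2, the muscle mutase, had the largest upward shift among the muscle isoforms. It lies on chromosome 11 from 5801637 to 5803796 in mm10 and read 338 FPKM in mutant and 267 FPKM in control hearts, which is 1.27-fold higher (log2 0.34, SE 0.341, 95% interval -0.33 to 1.01, q = 1.00 in the authors' deposited table). Pgam1, the general form, read 558 FPKM in mutant and 538 FPKM in control hearts (log2 0.05, SE 0.379, q = 1.00). The muscle form held 37.7% of mutase FPKM in mutant and 33.1% in control hearts. The difference of the log2 fold changes, Pgam2 minus Pgam1, was 0.29 with a 95% interval from -0.71 to 1.29, taking the 2 errors as independent. The shift of Pgam2 relative to Pgam1 was within its error.

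The enolase values depended on how a near-identical gene copy was counted. Eno1, the general enolase, lies on chromosome 4 from 150237197 to 150248873 and read 380 FPKM in mutant and 508 FPKM in control hearts, 1.34-fold lower (log2 -0.42, SE 0.361, 95% interval -1.12 to 0.29, q = 1.00 in the authors' deposited table). Eno1b is a retrogene copy of Eno1 on chromosome 18, and it read 916 FPKM in mutant and 838 FPKM in control hearts (log2 0.13, SE 0.432, q = 1.00). Of the 50-base stretches in the Eno1 transcript, 70.5% also occur in Eno1b, so reads of that length from those stretches could be counted for either gene. Summed, the 2 entries read 1296 FPKM in mutant and 1346 FPKM in control hearts, a log2 fold change of -0.05. Eno1 also lies 1.28 Mb from Casz1. The 16 entries between the 2 genes with at least 1 FPKM had a median log2 fold change of -0.05 and ranged from -0.33 to 0.73, and 0 of them had an unadjusted p under 0.05.

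**Figure D3:**
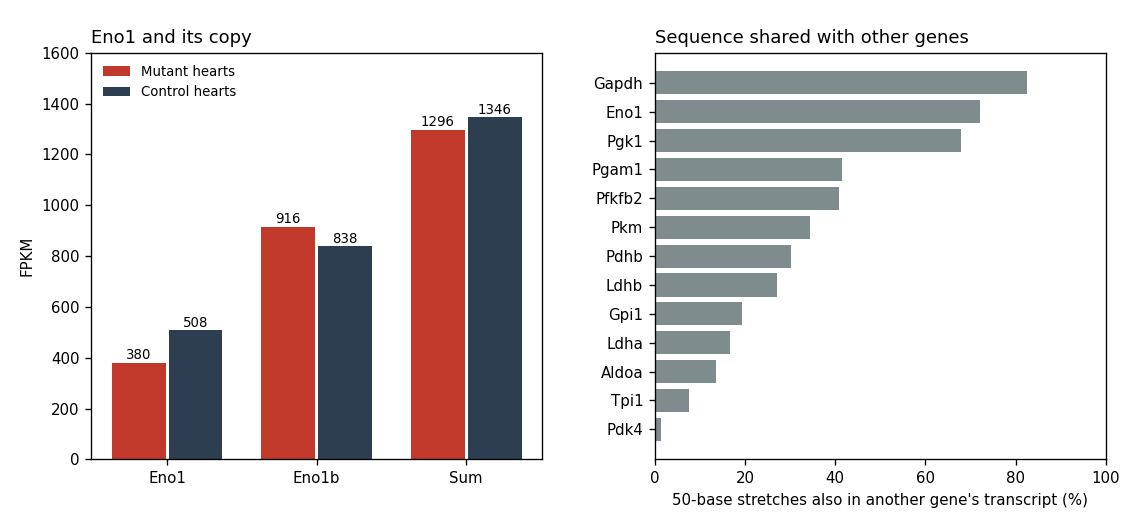
Left, FPKM of Eno1, its copy Eno1b and their sum in mutant (red) and control hearts (dark), 1 pooled value per genotype: 380 and 508 for Eno1, and 1296 and 1346 for the sum. Right, share of the 50-base stretches of each gene's transcript that also occur in a transcript of another gene, for genes above 1%, led by Gapdh at 82.5%, Eno1 at 72.2% and Pgk1 at 68.0%.

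Eno3, the muscle enolase, lies on chromosome 11 from 70657176 to 70662513 and shared no 50-base stretch with another gene. It read 155 FPKM in mutant and 162 FPKM in control hearts (log2 -0.06, SE 0.346, 95% interval -0.74 to 0.61, q = 1.00 in the authors' deposited table). Its share of the family was 28.8% in mutant and 24.1% in control hearts when Eno1 alone stood for the general form, and 10.7% in both genotypes when Eno1b was added. Likewise Eno3 minus Eno1 was 0.35 (95% interval -0.63 to 1.33), and -0.01 with Eno1b added. Eno2 had a log2 fold change of -0.36 (SE 0.422), at the lowest level of the set.

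The muscle isoforms lay on both sides of 0. Pgam2 was above 0, and Eno3 and Pfkm, with log2 fold changes of -0.06 and -0.12 (SE 0.304 for Pfkm), were below it. Against the ubiquitous subunits, Pfkm minus Pfkl was -0.17 (95% interval -1.04 to 0.70) and Pfkm minus Pfkp was -0.04 (95% interval -1.04 to 0.95). In all 11 isoform pairs compared, 4 of them muscle against ubiquitous, the interval of the difference included 0. The intervals were wide, from -1.37 at the lowest (Aldoc minus Aldoa) to 1.33 at the highest (Eno3 minus Eno1), and were not adjusted over the 11 pairs. The skeletal muscle markers, of which 7 of 8 were tested and 1 (Myh3) was called higher, summed to 40.6 FPKM in mutant and 68.2 FPKM in control hearts, and their part in the Pgam2 value was not tested. Myog and Myf5 also had an unadjusted p under 0.05 upward and Ckm and Tnni2 downward, and the sum was carried by Tnni2, at 26.1 FPKM in mutant and 51.5 FPKM in control hearts.

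**Figure D4:**
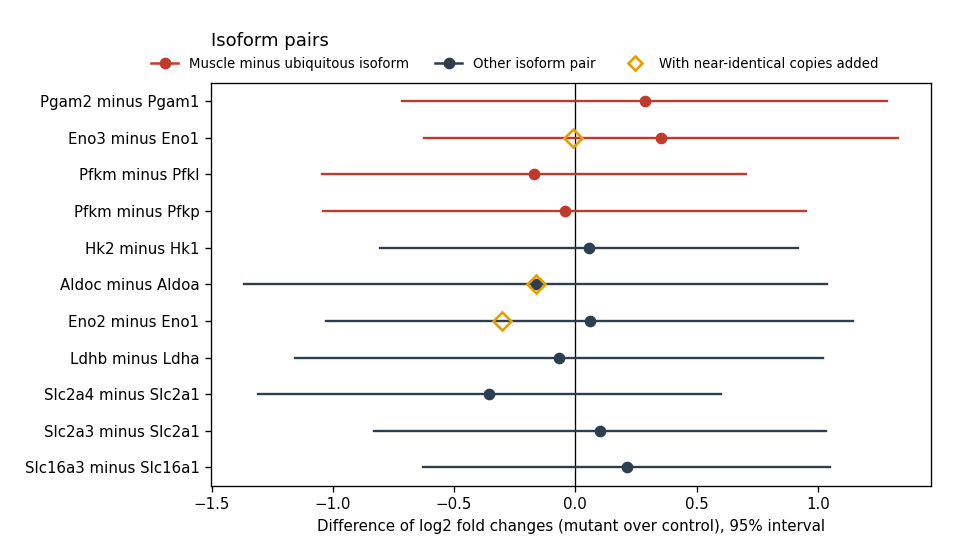
Difference of log2 fold changes within 11 isoform pairs with 95% intervals that take both errors as independent. Red marks muscle minus ubiquitous isoforms, and open diamonds give the difference after near-identical copies (Eno1b, Aldoart1, Aldoart2) were added. All 11 intervals include 0, and the diamond moves Eno3 minus Eno1 to -0.01.

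**Figure D5:**
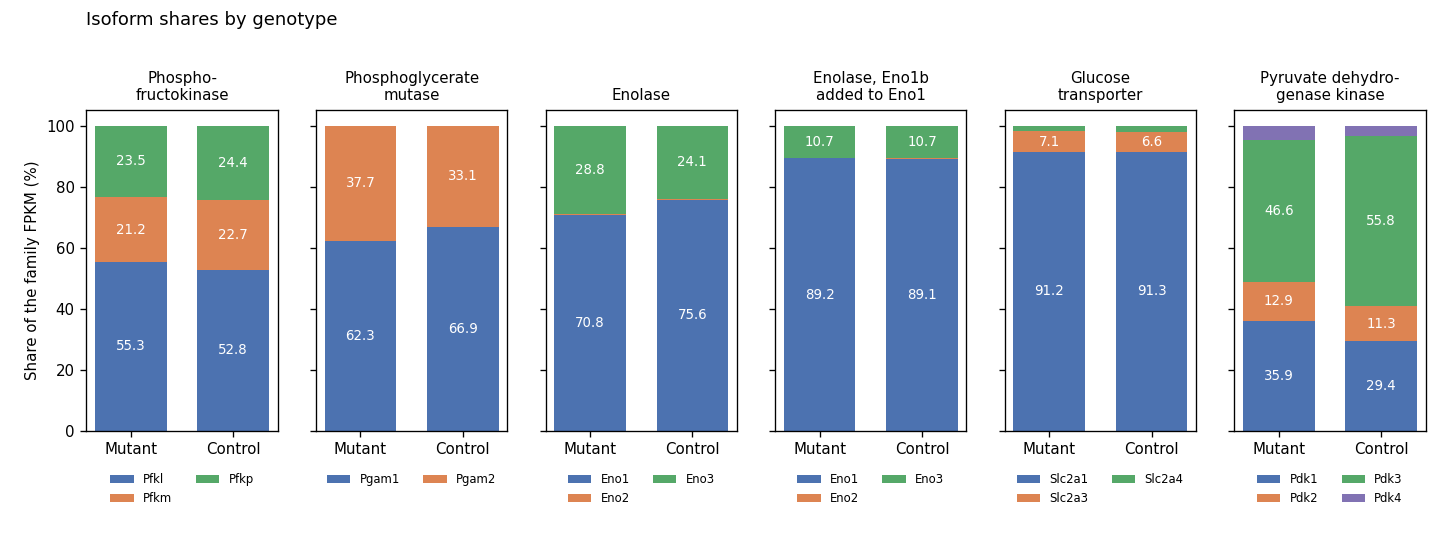
Share of the summed FPKM of each enzyme or transporter family held by each isoform, with mutant hearts left of control hearts. Pgam2 holds 37.7% and 33.1%, and Pdk3 46.6% and 55.8%. The enolase shares differ between genotypes with Eno1 alone and are nearly equal when Eno1b is added.

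Lactate genes were high and close between genotypes. Ldha, the subunit that favours lactate formation, read 1128 FPKM in mutant and 1079 FPKM in control hearts. Ldhb, the subunit that dominates in adult heart, read 167 FPKM in each genotype, so the Ldha share was 87.1% in mutant and 86.6% in control hearts. Slc16a3, the lactate exporter MCT4, read 130.0 FPKM in mutant and 124 FPKM in control hearts. Slc16a1, the MCT1 carrier that works in both directions, read 32.6 FPKM in mutant and 36.2 FPKM in control hearts. Their log2 fold changes were 0.06 and -0.15, each within 1 SE of 0.

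The enzymes that tune phosphofructokinase were scarce. The 4 Pfkfb genes, which make and remove its activator, a fructose bisphosphate other than its own product, summed to 17.3 FPKM in mutant and 17.2 FPKM in control hearts. Pfkfb2, the heart form, read 3.06 FPKM in mutant and 3.84 FPKM in control hearts (log2 -0.33, SE 0.404). Pfkfb1 read 5.78 and 5.04 FPKM, Pfkfb3, the hypoxia-induced form, 5.40 and 5.46 FPKM, and Pfkfb4 3.03 and 2.89 FPKM in mutant and control hearts. Bpgm makes the bisphosphoglycerate of red cells and read 48.8 FPKM in mutant and 43.5 FPKM in control hearts (log2 0.17, SE 0.288). The 3 tested erythroid markers summed to 272 FPKM in mutant and 255 FPKM in control hearts, 4 globin markers had too many fragments for a value, and the part of red cells in the Bpgm value was not tested.

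Pyruvate enters the citric acid cycle through pyruvate dehydrogenase, which the Pdk kinases switch off. Its role group held the largest difference of the set. Pdk3, on the X chromosome from 93764616 to 93832095, read 39.7 FPKM in mutant and 59.8 FPKM in control hearts, 1.51-fold lower (log2 -0.59, SE 0.281, 95% interval -1.14 to -0.04). Its unadjusted p of 0.0356 did not survive adjustment (q = 1.00 in the authors' deposited table). Pdk1, a hypoxia-induced kinase, read 30.6 FPKM in mutant and 31.4 FPKM in control hearts. Pdk2 read 11.0 FPKM in mutant and 12.1 FPKM in control hearts, and Pdk4, the fasting-induced kinase of adult heart, 3.99 and 3.71 FPKM. Pdk3 held 46.6% of the kinase FPKM in mutant and 55.8% in control hearts, and was the leading kinase in both. The kinase sum was 85.3 FPKM in mutant and 107 FPKM in control hearts.

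The targets of these kinases read close together. Pdha1, the alpha subunit, read 94.4 FPKM in mutant and 98.5 FPKM in control hearts. Pdhb, the beta subunit, read 119 FPKM in mutant and 130.3 FPKM in control hearts (log2 -0.14, SE 0.294). Of the 6 genes in the group 5 were below 0, where 55.6% of entries with at least 1 FPKM were, and the 4 besides Pdk3 lay within 1 SE of 0.

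Pdk3, Pgk1, Pfkfb1 and Pdha1 are X-linked, and Xist, the transcript that silences 1 X chromosome in females, read 0.0238 FPKM in mutant and 10.1 FPKM in control hearts. Ddx3y, on the Y chromosome, read 10.1 FPKM in mutant and 6.50 FPKM in control hearts. The labels give no sex, and Xist was called lower in mutant hearts. The part of sex in the Pdk3 value, or in any other value here, was not tested. With 1 pooled value per genotype it cannot be told apart from that of the genotype. The 418 X-linked entries with at least 1 FPKM had a median log2 fold change of -0.02, and 2 of the 4 X-linked glycolytic genes were above 0.

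Related genes of glucose metabolism were counted in 7 lists of 78 genes, of which 70 were tested. By the authors' deposited table, none (0 of 70) passed q under 0.05 in either direction, beside 0.422% of all tested entries. An unadjusted p under 0.05 was found for 1 of the 70, beside 3.17% of all tested entries. That gene was Adm, adrenomedullin, a vasodilator peptide induced by hypoxia, at 8.42 FPKM in mutant and 5.04 FPKM in control hearts (log2 0.74, SE 0.372, q = 1.00). It was 1 of 12 tested targets of hypoxia-inducible factors outside glycolysis, whose median was 0.08. Of the 13 genes for these factors and other regulators, Hif1a was the most abundant, at 50.9 FPKM in mutant and 56.9 FPKM in control hearts, and the median was -0.06 (-0.02 with 1 FPKM added).

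Of the 13 tested genes of glycogen metabolism 12 were lower and 1 higher, with a median of -0.11, where 55.6% of entries with at least 1 FPKM were lower. None (0 of 13) had an unadjusted p under 0.05, and each lay within 1 SE of 0. Gyg, glycogenin, which primes glycogen synthesis, was the most abundant at 610.0 FPKM in mutant and 670.0 FPKM in control hearts (log2 -0.14). The 7 pentose phosphate genes had a median of 0.06, led by Taldo1 at 122 FPKM in mutant and 119 FPKM in control hearts. The 8 genes for pyruvate import and the rest of the dehydrogenase complex had a median of -0.08, with Dld at 85.9 FPKM in mutant and 88.6 FPKM in control hearts. The gluconeogenic and lactate-related list had 6 tested genes, a median of -0.21 (-0.06 with 1 FPKM added to each level) and its highest level at G6pc3, 21.0 FPKM in mutant and 20.5 FPKM in control hearts. Bsg, the chaperone of lactate carriers, had too many fragments for a value.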

How the data were processed

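RNA from 3 mutant and 3 control hearts was sequenced. The submitters' processing notes name TopHat2 2.0.8, Bowtie2 2.1.0.0, Cufflinks 2.1.1, Cuffdiff and the mm10 build. The library normalisation and the handling of reads with several matches are not given in the sources used here. The authors deposited 1 FPKM value per gene and genotype, with a log2 fold change, a test statistic (a score of opposite sign), and a p-value and q-value per entry, per the file headers. Cuffdiff tested 15387 of 23290 entries. The deposited p matched the normal tail of the statistic within 1e-05, so the SE was taken as the fold change divided by the statistic, and the deposited q equalled Benjamini-Hochberg values recomputed across the tested entries within 1e-04. A RefSeq gene table of the same assembly and GENCODE named 99.3% of entries. The symbol Eno1 is also listed as an alias of Eno1b, and the entry of the gene now called Eno1 was used. Start coordinates were moved to count from 1.

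The genes, lists, isoform pairs and motifs were chosen with earlier results of these data known, so the lists get counts and medians and no test. All 35 genes are named with both levels. SE, interval or q is given for the muscle isoforms and partners, for the 5 largest test statistics and for some others chosen after their values were seen. Of each related list the gene with p under 0.05, or else the most abundant, is named. Shared sequence was counted as 50-base stretches of 1 GENCODE transcript per gene, on the sense strand, found in transcripts of other genes. No source used here gives the read length. Alternatives covered thresholds, pseudocounts of 0.1 and 1 FPKM, filters, centring and added gene copies. The calling step was tested on simulated data, with errors drawn from the implied SEs and changes larger than any of the 35 genes showed. It checked the code only and has no bearing on the count of 0 calls. Software was scipy 1.17.1, pandas 2.3.3, numpy 2.4.6 and matplotlib 3.10.9 under Python 3.11.15.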

Additional observations from a re-analysis of the deposited data

How the results depend on the processing

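The count of 0 called genes held at q under 0.1 and when p was adjusted over entries with at least 1 FPKM. It became 1 at an unadjusted p under 0.05, 1 with a fold of at least 1.5 and no test, and 6 at 1.25-fold, a limit added after seeing the data. At an unadjusted p under 0.05 the targets of hypoxia-inducible factors outside glycolysis gave a count of 1, and the other 6 related lists stayed at 0. Adding Eno1b to Eno1, also chosen after seeing the data, moved the Eno3 share to 10.7% in mutant and 10.7% in control hearts. It moved the log2 fold change of Eno1 to -0.05, and the entry of Eno1b taken in place of Eno1 gave 0.13. These moves follow from the construction of each alternative. With 1 FPKM added, the median of the gluconeogenic and lactate-related list became -0.060 and that of the hypoxia-inducible factor regulators -0.018. Centring on the median of all entries (-0.02) turned the median of the 35 genes to 0.013, and 3 genes with values near 0 (Tpi1, Ldhb and Pfkfb3) changed sign. Of 168 alternatives 157 left single values within their SE, and counts and medians within 1.5 times. Many of these could hardly move a value, so the count says little about robustness. Pseudocounts and the centring shift were small beside most levels and the SEs. Each gene had 1 entry, so summing the entries of a gene changed nothing, and adding copies left families without copies as they were. No paired analysis was possible because the table holds 0 columns per heart, and leaving out single hearts was not run for the same reason. FPKM without counts leaves depth unknown, and the implied SEs, with a median of 0.346, limit what single genes can show.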

Other observations

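Other isoforms of the pathway had these levels. Pklr, the pyruvate kinase of liver and red cells, read 30.4 FPKM in mutant and 30.3 FPKM in control hearts in the authors' deposited table. Hkdc1 read 0.789 FPKM in mutant and 0.978 FPKM in control hearts. Pgd, an enzyme of the pentose phosphate path that lies between Casz1 and Eno1 on chromosome 4, read 63.2 FPKM in mutant and 64.7 FPKM in control hearts. Rere, on the other side of Eno1 from Casz1, read 12.1 FPKM in mutant and 12.6 FPKM in control hearts. Aldoart1 and Aldoart2, copies of Aldoa, read 45.0 and 21.4 FPKM in mutant hearts, against 42.7 and 21.7 FPKM in control hearts.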
